A study of Mus musculus with 12 samples.

Results

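The intercalated disc is the junction that joins heart muscle cells end to end. The 10 genes described here encode its core parts. They are the connexins Gja1, Gja5 and Gjc1, the cadherin Cdh2, the alpha-catenin Ctnna3, plakoglobin (Jup) and the desmosome genes Dsp, Pkp2, Dsg2 and Dsc2. The rule named them by symbol and used no measured values, but they were chosen with earlier results of these data known. All 10 were found among the 46983 gene symbols of the count table, and all 10 passed the filter on low counts that left 17715 genes for testing.

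Gap junctions are channels built from connexins, which let ions and small molecules pass between neighbouring cells. Adherens junctions tie the actin filaments of neighbouring cells together through cadherins and catenins, and desmosomes do the same for the desmin intermediate filaments. In the heart the junctions share proteins and lie side by side, and inherited changes in desmosome genes are a known cause of arrhythmogenic cardiomyopathy. Alpha-catenins are also known to bind YAP and hold it out of the nucleus, in mouse skin and heart among other tissues.

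RNA was sequenced from cardiomyocyte nuclei of adult mice. The YAP5SA libraries (n = 2) came from tamoxifen-treated Yap5SA+/tg; Myh6-MCM mice and the Control libraries (n = 2) from tamoxifen-treated Myh6-MCM mice. Myh6-MCM is a tamoxifen-activated Cre recombinase under the promoter of Myh6, a heart muscle myosin gene, so both groups carried the Cre and received the drug. In YAP5SA the serines of YAP, a co-activator of transcription, that Hippo kinases phosphorylate are replaced by alanine. Nuclei were captured on beads through PCM1. Whether the replicates of a group are separate animals is not in the labels. The p-values therefore speak only for the spread among these 4 libraries, part or all of which may be technical.

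Total counts were 15012122 and 12806949 in YAP5SA replicates 1 and 2, against 10927396 and 7850661 in Control replicates 1 and 2. Levels are counts per 1000000 counts (CPM) after TMM scaling. The Control libraries stood further apart than the YAP5SA libraries. Over the 12174 tested genes with a mean of at least 5 CPM, the median size of the log2 difference between replicates was 0.12 in the YAP5SA pair and 0.33 in the Control pair. All 8 cardiomyocyte markers were detected. Their summed level was 22590.1 and 23828 CPM in the YAP5SA libraries, against 31963 and 64891 CPM in Control replicates 1 and 2. Most of each sum was Ttn, at 15501 and 16678 CPM in YAP5SA, against 19901 and 48149 CPM in Control. Over the 8 markers the ratio of Control replicate 2 to replicate 1 ran from 1.11 for Tnnt2 to 2.42 for Ttn. Transcripts of other heart cells were present too, with fibroblast markers summing to 5570 to 6881 CPM in YAP5SA and 5550 to 6930 CPM in Control. In such bulk samples fewer cells of a type and less RNA per cell cannot be told apart. Yap1 measured 168 and 161 CPM in YAP5SA, against 138 and 166 CPM in Control, and the sources used here do not give whether transgene reads were counted under it.

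None of the 10 genes passed the test between the groups. With edgeR's quasi-likelihood test at an adjusted p of 0.05, 0 were higher and 0 lower in YAP5SA, while 4.12% of all tested genes passed, 3.12% higher and 0.999% lower. DESeq2 also called 0 members, where 8.53% of genes passed. The members' count was 0 as well with limma-voom (4.02% of genes), RLE factors (4.36%), library totals alone (4.91%), a minimum count of 50 (5.45%), the replicate block (2.44%) or a crossed one (2.43%), and without YAP5SA replicate 1 (0.388%) or 2 (0.143%). In the fit that left out Control replicate 1, 0 members were higher and 8 lower, where 18.8% and 17.4% of genes were higher and lower. In the fit that left out Control replicate 2, 3 were higher and 2 lower, where 19.7% and 18.6% were. At an unadjusted p under 0.05 there was 1 member, Dsg2, which was lower, against 23.7% of all tested genes, 12.7% higher and 10.9% lower. Of the 10 members, 8 had a lower fitted level in YAP5SA and 2 a higher one, with a median log2 fold change of -0.37, against a median of -0.06 over all tested genes, of which 54.3% were negative. Both values turned on Control replicate 2, without which 5 members were negative and the median was -0.043, while without Control replicate 1 all 10 were negative and the median was -0.56. In 5 members both YAP5SA libraries lay below both Control libraries, and in 0 above, while 28.3% of all tested genes lay wholly below and 28.1% wholly above. The plot of levels by library shows all members.

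**Figure D1:**
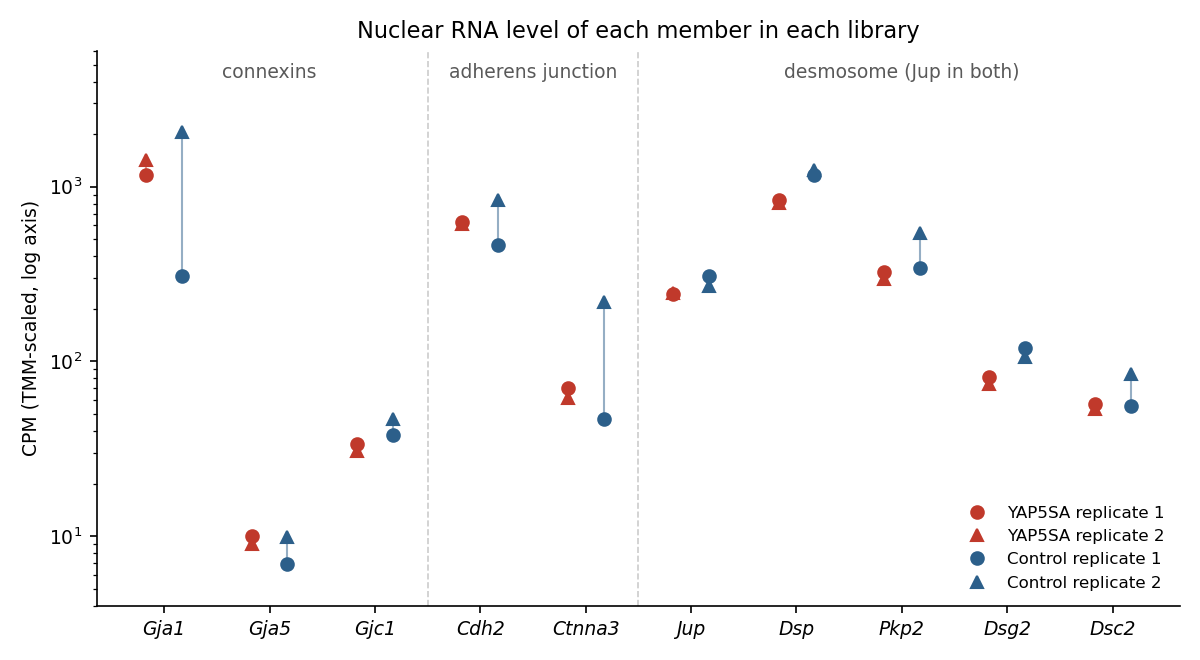
Level of each of the 10 genes in each library, in CPM on a log axis, with YAP5SA in red to the left of Control in blue (circle replicate 1, triangle replicate 2, lines join the replicates). The YAP5SA replicates differ most for Gja1 (1159.5 and 1426 CPM), whereas the Control replicates of Gja1 (309 and 2063 CPM) and Ctnna3 (46.9 and 218 CPM) lie far apart.

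Gja1 encodes connexin 43, the main connexin of working ventricular muscle (chromosome 10, 56377330 to 56402513, mm10, plus strand). Its level was 1159.5 and 1426 CPM in YAP5SA replicates 1 and 2, against 309 and 2063 CPM in Control replicates 1 and 2. Both YAP5SA libraries lay between the Control libraries, so that the groups overlapped. The fitted log2 fold change was 0.12 (SE 0.82, 95% interval -1.92 to 2.17, adjusted p = 0.943), an interval that holds changes from 0.264-fold to 4.5-fold. The direction of Gja1 depended on which Control library was used. Without Control replicate 1 its log2 fold change was -0.67 (adjusted p = 0.000367), and without Control replicate 2 it was 2.10 (adjusted p = 2.06e-27). In those fits the lone Control library was assumed to vary like the YAP5SA pair, and 36.2% and 38.3% of all tested genes passed.

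Gja5 encodes connexin 40, known from the atria, the conduction system and arterial endothelium (chromosome 3, 96904693 to 97077416, plus strand). Its level was 9.97 and 8.96 CPM in YAP5SA, against 6.88 and 9.91 CPM in Control, from 148, 118, 76 and 75 counts in that order of libraries. The groups overlapped, and the log2 fold change of Gja5 was 0.18 (SE 0.28, 95% interval -0.53 to 0.89, adjusted p = 0.740). It was -0.06 without Control replicate 1. Markers of cells known to use Gja5 were detected too, though not all of them. The 6 atrial markers summed to 73.7 and 115 CPM in YAP5SA and 80.6 and 233 CPM in Control. Of the 4 tested ones, 1 was higher in Control replicate 2 than in replicate 1, with a median log2 ratio of -0.23 after adding 1 CPM. Myl7, another of the 6, measured 3.37 and 2.13 CPM in YAP5SA, against 2.08 and 1.32 CPM in Control. Sln, which encodes the atrial calcium-pump regulator sarcolipin, was at 1 and 3 counts in YAP5SA and 0 in both Control libraries. The 6 conduction system markers summed to 60.6 and 65.2 CPM in YAP5SA and 95.7 and 65.7 CPM in Control. The 6 arterial endothelial markers summed to 72.0 and 71.4 CPM in YAP5SA, against 190.1 and 96.8 CPM in Control. Of these 6 of 6 had a negative log2 fold change. Of 4 tested atrial markers 2 were negative and 2 positive, with 1 past the threshold, higher in YAP5SA (3.12% of all tested genes). Of 5 tested conduction markers 4 were negative and 1 positive. The part of these markers in the level of Gja5 was not tested. In 165 bases an exon of Gja5 overlaps one of Gpr89 on the other strand, which measured 22.4 and 20.6 CPM in YAP5SA and 15.2 and 21.9 CPM in Control. As the strand setting of the counting is not stated, reads there cannot be told apart.

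Gjc1 encodes connexin 45, a connexin of the conduction system and of the early embryonic heart (chromosome 11, 102799579 to 102819700, minus strand). It measured 33.6 and 30.5 CPM in YAP5SA, against 38.0 and 46.7 CPM in Control, so that both YAP5SA libraries lay below both Control libraries. The log2 fold change of -0.40 did not pass (SE 0.19, 95% interval -0.87 to 0.06, adjusted p = 0.264).

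Counted within each library, where scaling plays no part, the make-up of the connexin counts was alike in 3 of the 4 libraries. Gja1 took 96.4% (exact 95% binomial interval 96.1 to 96.7) and 97.3% (97.1 to 97.5) of the counts of the 3 connexins in the YAP5SA libraries. In Control replicates 1 and 2 it took 87.3% (86.2 to 88.3) and 97.3% (97.1 to 97.6). Gjc1 took 2.79% and 2.08% in YAP5SA, against 10.7% and 2.20% in Control, and Gja5 0.829% and 0.611% in YAP5SA, against 1.94% and 0.468% in Control. Control replicate 1 stood apart from the other 3 libraries. The mean share of Gja1 was 4.52 percentage points higher in YAP5SA, which is less than the SD of 7.08 points between the Control libraries. With 2 libraries a group the smallest two-sided exact permutation p is 0.333, so no test of shares is given. The intervals cover counting error only.

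Ctnna3 encodes alpha-T-catenin, an alpha-catenin of heart and testis that links cadherins to actin and also binds plakophilin 2. The gene spans 1574 kb of chromosome 10 (63430098 to 65003667, plus strand), with 7.23 kb of exon sequence. Its level was 70.0 and 61.9 CPM in YAP5SA, against 46.9 and 218 CPM in Control. Both YAP5SA libraries again lay between the Control libraries, as for Gja1. The log2 fold change of Ctnna3 was -1.0 (SE 0.67, 95% interval -2.67 to 0.67, adjusted p = 0.410). It was -1.72 without Control replicate 1 and 0.53 without Control replicate 2. Without the filter on low counts it passed at -0.97 (adjusted p = 0.00102), where 11.2% of genes passed. The closely related Ctnna1, which encodes alpha-E-catenin, measured 702 and 673 CPM in YAP5SA, against 567 and 554 CPM in Control (log2 fold change 0.29, adjusted p = 0.429). Of the counts of these alpha-catenins, Ctnna3 took 9.07% (8.55 to 9.61) and 8.42% (7.88 to 8.99) in YAP5SA. In Control replicates 1 and 2 it took 7.64% (7.02 to 8.30) and 28.2% (27.1 to 29.4), so that here Control replicate 2 stood apart.

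Genes within introns of Ctnna3, on the other strand, were highest in the same library. These were looked at after the values of Ctnna3 were seen. Lrrtm3, which encodes a synaptic adhesion protein, measured 16.8 and 11.5 CPM in YAP5SA, against 8.78 and 67.7 CPM in Control. Gm10118 measured 11.3 and 8.96 CPM in YAP5SA, against 7.34 and 53.8 CPM in Control. The antisense gene Gm15485 within Cdh2 measured 15.8 and 12.6 CPM in YAP5SA, against 7.43 and 29.9 CPM in Control. Their exons do not overlap those of Ctnna3 or Cdh2. The sources used here do not give whether intronic reads or strand entered the counting.

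**Figure D2:**
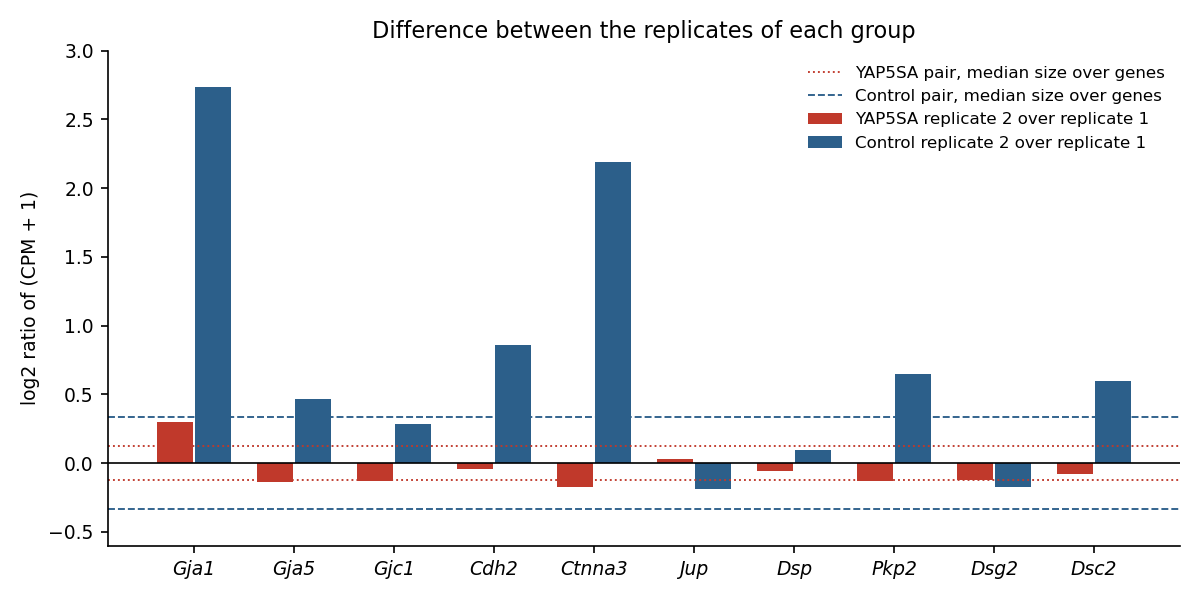
Log2 ratio of replicate 2 over replicate 1 for each gene, after adding 1 CPM, in the YAP5SA pair (red) and the Control pair (blue), with lines at the median size of that ratio over 12174 genes (dotted, 0.12 in YAP5SA; dashed, 0.33 in Control). Gja1 (2.73) and Ctnna3 (2.19) stand out in the Control pair, while Dsp, Jup, Dsg2 and Gjc1 lie inside the dashed lines.

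Cdh2 encodes N-cadherin, the cadherin of the cardiac adherens junction (chromosome 18, 16588877 to 16809246, minus strand). It measured 631 and 614 CPM in YAP5SA, against 465 and 843 CPM in Control, once more between the Control libraries. The log2 fold change of Cdh2 was -0.07 (SE 0.33, 95% interval -0.89 to 0.75, adjusted p = 0.920). Without Control replicate 1 it was -0.43, and without Control replicate 2 it was 0.46.

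The difference between the Control libraries was thus unequal over the members. Control replicate 2 was 6.67 times as high as replicate 1 for Gja1 and 4.65 times for Ctnna3, sizes above those of 99.6% and 98.7% of the 12174 genes. It was 1.81 times as high for Cdh2, 1.57 times for Pkp2, 1.52 times for Dsc2, 1.44 times for Gja5, 1.23 times for Gjc1, 1.07 times for Dsp, 0.884 times for Dsg2 and 0.878 times for Jup. In all, 8 of 10 members were higher in Control replicate 2, as were 8 of 8 cardiomyocyte markers, with a median log2 ratio, after adding 1 CPM, of 0.53 for the members and 0.50 for the markers. Over all 17715 tested genes 8380 were higher in Control replicate 2, with a median of -0.03. So were 16 of 18 disc-associated genes (median 0.92) and 5 of 5 erythroid markers (0.78). Of 11 genes kept as signs of RNA quality 6 were higher (0.47). Of 8 endothelial markers 1 was higher in Control replicate 2, and of 8 macrophage markers 2. The part of cell make-up in these differences was not tested. In the YAP5SA pair the ratio of replicate 2 to replicate 1 ran from 0.884 for Ctnna3 to 1.23 for Gja1.

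By the size of the difference of their centred log2 levels over the 4 libraries, the members differed in how near they lay to each other. Pkp2 and Dsc2 were nearest each other (root mean square difference 0.08), as were Dsp and Dsg2 (0.10) and Gja5 and Cdh2 (0.17). The nearest member to Gjc1 was Dsp (0.11), and to Jup it was Dsg2 (0.15). Gja1 and Ctnna3 had no near member, the nearest to Gja1 being Ctnna3 (0.70) and to Ctnna3 being Pkp2 (0.55). Among all genes, chosen after the values were seen, Slitrk4, a synaptic adhesion gene, came next to the gene model Gm43804 as the nearest to Gja1 (0.11; 15.8 and 19.2 CPM in YAP5SA, against 4.35 and 32.1 CPM in Control). Kcna4, which encodes a potassium channel, was the nearest to Ctnna3 (0.06; 11.8 and 10.6 CPM in YAP5SA, against 8.60 and 41.5 CPM in Control).

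The 250 bases upstream of the annotated start are shown for Gja1 and Ctnna3, the members whose Control libraries lay furthest apart, and for the desmosome genes Dsp and Jup, whose Control libraries were close together. They are from RefSeq (GRCm38.p6), 5′ to 3′ on the gene's strand, at chr10:56377050-56377299 (plus) for Gja1, chr10:63429848-63430097 (plus) for the first of 3 starts of Ctnna3, chr10:63457261-63457510 (plus) for its second, chr13:38151044-38151293 (plus) for Dsp and chr11:100397791-100398040 (minus) for Jup. Capitals mark matches on either strand to the motifs searched, which were GGAATG of TEAD factors, the DNA-binding partners of YAP, TGANTCA of AP-1, and of MEF2, a cardiac transcription factor family, CTA and TAG with any 4 bases between them.
Gja1: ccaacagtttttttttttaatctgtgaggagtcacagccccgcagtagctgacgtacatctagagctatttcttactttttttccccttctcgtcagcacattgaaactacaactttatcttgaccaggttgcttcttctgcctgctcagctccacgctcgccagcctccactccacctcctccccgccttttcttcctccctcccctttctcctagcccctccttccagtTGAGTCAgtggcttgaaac
Ctnna3, first start: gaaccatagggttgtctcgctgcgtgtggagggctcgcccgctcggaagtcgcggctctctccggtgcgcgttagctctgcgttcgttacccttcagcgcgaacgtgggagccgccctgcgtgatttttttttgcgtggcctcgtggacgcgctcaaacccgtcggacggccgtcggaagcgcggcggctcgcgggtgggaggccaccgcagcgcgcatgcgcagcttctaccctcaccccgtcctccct
Ctnna3, second start: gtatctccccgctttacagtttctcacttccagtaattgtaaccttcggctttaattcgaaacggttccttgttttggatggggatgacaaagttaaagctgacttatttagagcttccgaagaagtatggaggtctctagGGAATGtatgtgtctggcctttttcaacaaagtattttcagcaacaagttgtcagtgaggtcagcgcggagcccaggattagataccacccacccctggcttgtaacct
Dsp: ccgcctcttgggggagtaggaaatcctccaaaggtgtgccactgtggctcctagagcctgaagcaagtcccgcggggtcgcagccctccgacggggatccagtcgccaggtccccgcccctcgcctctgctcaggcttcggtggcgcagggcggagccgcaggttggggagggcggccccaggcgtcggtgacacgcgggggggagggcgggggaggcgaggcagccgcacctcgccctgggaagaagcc
Jup: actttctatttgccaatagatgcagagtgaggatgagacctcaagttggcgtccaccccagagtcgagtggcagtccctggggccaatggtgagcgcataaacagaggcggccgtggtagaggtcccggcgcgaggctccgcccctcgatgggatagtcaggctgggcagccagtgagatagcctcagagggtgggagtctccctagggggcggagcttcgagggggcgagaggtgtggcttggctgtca
Windows were searched for 5 of the 10 members (Gja1, Gja5, Ctnna3, Jup and Dsp), with 7 starts. Those of Gjc1, Cdh2, Pkp2, Dsg2 and Dsc2 were not searched, which does not show that RefSeq lacks them. The window of Gja1 held 1 AP-1 match, beginning 19 bases before the start, and that of the second Ctnna3 start held 1 TEAD match, beginning 109 bases before it. The windows of Dsp, Jup and Gja5 and the other Ctnna3 starts held none of the 3 motifs. No match overlapped another. Of 32851 windows of the same length, 12.6% held the TEAD motif, 6.75% the AP-1 motif and 3.20% the MEF2 motif. A match is a description of these letters and not a bound site.

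The 5 desmosome genes, counting plakoglobin, all had a lower fitted level in YAP5SA, at a median log2 fold change of -0.51. None passed. Other lists had negative medians too, against a median of -0.06 over all tested genes, of which 54.3% were negative. Of 8 cardiomyocyte markers 7 had a negative log2 fold change, with a median of -1.09 and none past the threshold. Of 8 endothelial markers 8 were negative, with a median of -0.86. Past the threshold 0 were higher and 2 lower, as were 3.12% and 0.999% of all tested genes. Of 11 tested genes kept as signs of RNA quality (mitochondrial, nuclear-retained and stress-response transcripts) 10 were negative, with a median of -0.83. In each direction 1 was past the threshold (3.12% of all tested genes higher and 0.999% lower). Their summed level was 51192 and 39976 CPM in YAP5SA, against 52565 and 77477 CPM in Control. Their part in the levels of the desmosome genes was not tested. Dsp encodes desmoplakin, which anchors desmin at the desmosome (chromosome 13, 38151294 to 38198577, plus strand). It measured 842 and 809 CPM in YAP5SA, against 1173 and 1253 CPM in Control, with no overlap between the groups. Its log2 fold change of -0.55 did not pass (SE 0.23, 95% interval -1.14 to 0.03, adjusted p = 0.228). It was close to that value without either Control library, at -0.59 without replicate 1 and -0.47 without replicate 2. An exon of Dsp shares 499 bases with Gm10129 on the other strand, which stayed at 1.15 CPM or less in every library.

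Dsg2 encodes desmoglein 2, a desmosomal cadherin (chromosome 18, 20558074 to 20604521, plus strand). It measured 81.2 and 74.4 CPM in YAP5SA, against 119 and 105 CPM in Control. This was the member with the smallest p, whose log2 fold change of -0.53 had a 95% interval that lay below 0 (SE 0.16, -0.94 to -0.12, unadjusted p = 0.0208, adjusted p = 0.138). The log2 fold change of Dsg2 was -0.43 without Control replicate 1 and -0.58 without Control replicate 2. Dsg2 and Dsp were negative in both of those fits, as were Gjc1, Pkp2 and Jup. Both fits use the same YAP5SA pair and take the spread within a group from that pair alone. Dsg2 shares 330 exon bases with the antisense gene Gm16090, which was at 1.45 CPM or less.

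Pkp2 encodes plakophilin 2, which joins desmosomal cadherins to desmoplakin (chromosome 16, 16213318 to 16272712, plus strand). It measured 326 and 298 CPM in YAP5SA, against 344 and 541 CPM in Control. The groups did not overlap, but the nearest libraries lay close together, and the log2 fold change of Pkp2 was -0.51 (SE 0.27, 95% interval -1.18 to 0.17, adjusted p = 0.320). It was -0.79 without Control replicate 1 and -0.11 without Control replicate 2. Jup encodes plakoglobin, found in desmosomes and adherens junctions alike (chromosome 11, 100368958 to 100397763, minus strand). It measured 242 and 247 CPM in YAP5SA, against 309 and 271 CPM in Control, which did not overlap (log2 fold change -0.25, SE 0.18, 95% interval -0.70 to 0.20, adjusted p = 0.447). Dsc2 encodes desmocollin 2, the partner of desmoglein 2 (chromosome 18, 20030633 to 20059554, minus strand). It measured 56.7 and 53.6 CPM in YAP5SA, against 55.8 and 84.9 CPM in Control, and the groups overlapped (log2 fold change -0.35, SE 0.24, 95% interval -0.95 to 0.25, adjusted p = 0.425). Dsc2 was at -0.61 without Control replicate 1 and at 0.02 without Control replicate 2.

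**Figure D3:**
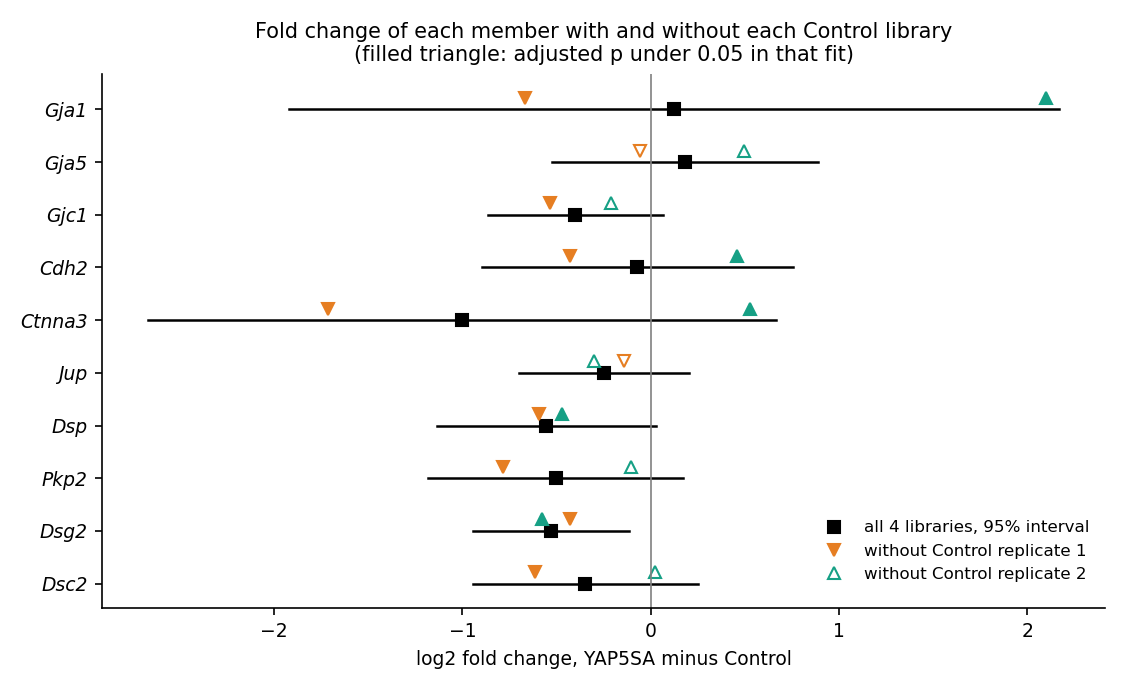
Log2 fold change of YAP5SA over Control for each gene with all 4 libraries (black square, 95% interval) and without Control replicate 1 (orange) or replicate 2 (green), the triangles filled where the adjusted p was under 0.05. Gja1, Gja5, Cdh2, Ctnna3 and Dsc2 lie on opposite sides of 0 in the partial fits. Gjc1, Jup, Dsp, Pkp2 and Dsg2 lie below 0 in all 3 fits.

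Dsp took 54.4% (53.8 to 55.1) and 54.6% (53.9 to 55.3) of the counts of the 5 genes in YAP5SA, against 58.6% (57.9 to 59.2) and 55.5% (54.8 to 56.3) in Control. Pkp2 took 21.1% and 20.1% in YAP5SA, against 17.2% and 24.0% in Control. Jup took 15.6% and 16.7% in YAP5SA, against 15.4% and 12.0% in Control. Dsg2 took 5.25% and 5.02% in YAP5SA, against 5.96% and 4.67% in Control, and Dsc2 took 3.67% and 3.62% in YAP5SA, against 2.79% and 3.76% in Control. For Pkp2, Dsg2 and Dsc2 the YAP5SA shares lay between the Control shares. Of the counts of Jup and its close relative Ctnnb1 (beta-catenin), Jup took 42.8% and 41.6% in YAP5SA, against 44.8% and 45.6% in Control.

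**Figure D4:**
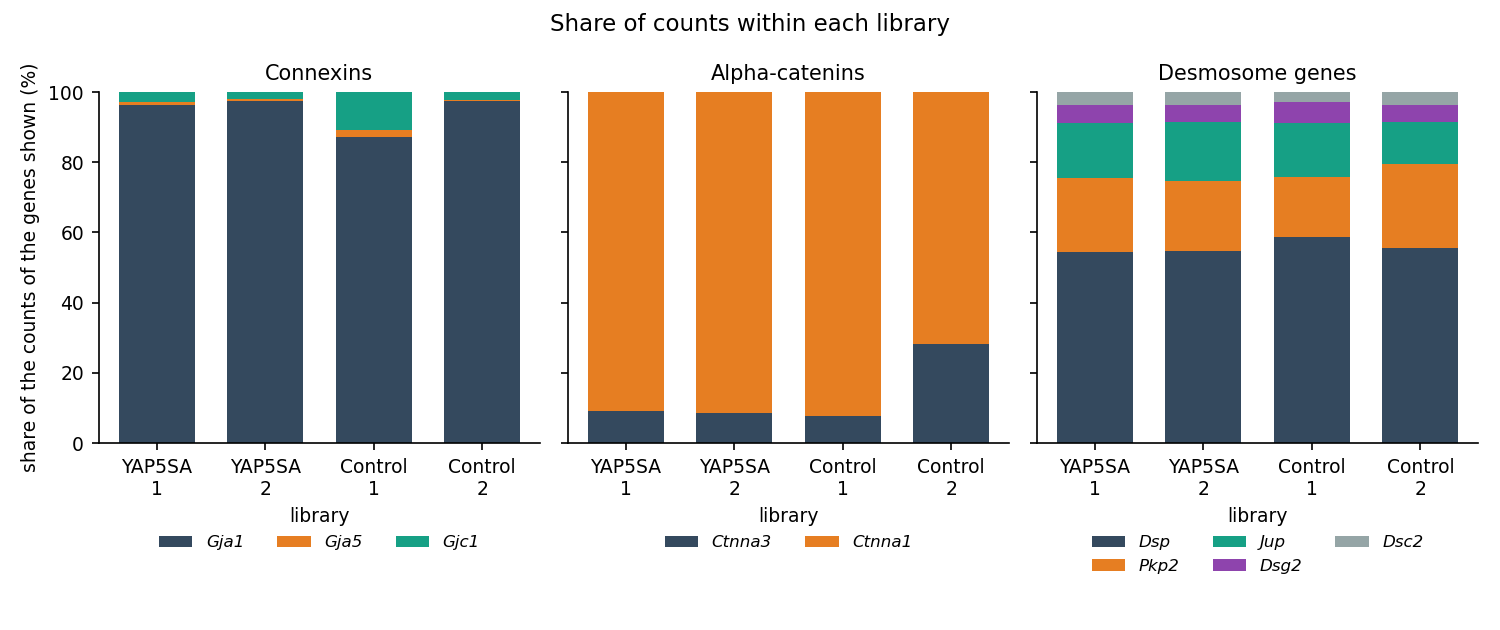
Share of counts, in percent, that each gene takes among the connexins, the alpha-catenins and the desmosome genes in each library, YAP5SA to the left of Control. Control replicate 1 differs in the connexin panel (Gja1 at 87.3%), Control replicate 2 in the alpha-catenin panel (Ctnna3 at 28.2%), and Dsp holds 54.4% to 58.6% of the desmosome counts in all 4 libraries.

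Levels of different genes were compared as CPM per kb of exon sequence, which assumes that reads fell on exons. In YAP5SA the order from the top was Gja1 at 126 ± 18.4, Dsp at 85.5 ± 2.42, Cdh2 at 77.2 ± 1.51, Pkp2 at 58.2 ± 3.70, Jup at 38.0 ± 0.554, Dsc2 at 10.5 ± 0.419, Dsg2 at 9.41 ± 0.580, Ctnna3 at 9.13 ± 0.795, Gjc1 at 6.40 ± 0.428 and Gja5 at 1.65 ± 0.12 CPM per kb (SD, n = 2). The libraries of Dsg2 and Ctnna3 overlapped on this scale, and those of the other neighbours in the order did not. In Control the order was Dsp at 126 ± 5.88, Gja1 at 116 ± 121, Pkp2 at 82.6 ± 26.0, Cdh2 at 81.1 ± 33.2, Jup at 45.1 ± 4.13, Ctnna3 at 18.3 ± 16.7, Dsg2 at 13.6 ± 1.18, Dsc2 at 13.3 ± 3.90, Gjc1 at 8.46 ± 1.22 and Gja5 at 1.46 ± 0.373 CPM per kb (SD, n = 2). Among the Control neighbours Dsp overlapped with Gja1, Gja1 with Pkp2 and Pkp2 with Cdh2, as did Ctnna3 with Dsg2 and Dsg2 with Dsc2. The desmosomal cadherins and connexins 40 and 45 were thus low beside desmoplakin in both groups.

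Of 67 other junction genes in 4 wider lists, 45 passed the filter on low counts, of which 2 rose, 2 fell and 41 did not pass (3.12% and 0.999% of all tested genes rose and fell). Genes of the adherens junction and its plaque held both increases. Ctnnd2, which encodes delta-catenin, a p120 family protein best known from neurons, rose to 29.3 and 27.0 CPM in YAP5SA, against 0.272 and 1.45 CPM in Control, where it rests on 3 and 11 counts. Its log2 fold change was 5.15 (SE 0.57, adjusted p = 0.0276). Pvrl2, which encodes nectin-2, an adhesion protein of adherens junctions, rose to 87.5 and 105 CPM in YAP5SA, against 33.8 and 28.3 CPM in Control (log2 fold change 1.63, SE 0.19, adjusted p = 0.0284). Of 15 tested genes in that list 2 rose and 0 fell. Their log2 fold changes had a median of 0.47, with 7 higher and 0 lower at an unadjusted p under 0.05 (12.7% and 10.9% of all tested genes). Without YAP5SA replicate 2 neither increase passed, and without YAP5SA replicate 1 that of Pvrl2 was lost. The macrophage markers were higher in the same libraries, with 4 of 8 past the threshold and a summed level of 1169 and 1409 CPM in YAP5SA, against 709 and 493 CPM in Control. Their part in these increases was not tested.

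The other lists held the decreases. Des encodes desmin, the filament that desmosomes anchor, and was the 1 of 18 tested disc-associated genes that passed. It fell to 745 and 738 CPM in YAP5SA, against 2304 and 2647 CPM in Control (log2 fold change -1.74, SE 0.27, adjusted p = 0.0394). That list had a median of -0.36, with 0 higher and 6 lower at an unadjusted p under 0.05, against 12.7% and 10.9% of all tested genes. The cardiomyocyte markers stood beside Des, with 0 of 8 past the threshold. In 7 of 8 both YAP5SA libraries lay below both Control libraries, as in 28.3% of all tested genes. Their log2 fold changes ran from -1.60 for Mybpc3, -1.38 for Myh6 and -1.17 for Tnni3 to -0.24 for Tnnt2. Pcm1, through whose protein the nuclei were captured, went the other way (0.33). Its YAP5SA libraries lay above both Control libraries, as in 28.1% of all tested genes. Mybpc3, Myh6 and Tnni3 encode a myosin-binding protein, a myosin heavy chain and a troponin of heart muscle. The part of these markers in the level of Des was not tested. Evpl, which encodes envoplakin, an epithelial relative of desmoplakin, was the 1 of 5 tested genes of the other desmosome list that passed. It fell to 0.539 and 0.532 CPM in YAP5SA, against 3.53 and 2.78 CPM in Control, from 8, 7, 39 and 21 counts in that order of libraries (log2 fold change -2.54, SE 0.42, adjusted p = 0.0433). The median of that list was -0.75, with 0 higher and 3 lower at an unadjusted p under 0.05 (12.7% and 10.9% of all tested genes). The 8 epicardial markers, of an epithelial-like layer, summed to 59.0 and 67.7 CPM in YAP5SA, against 75.6 and 52.5 CPM in Control. The sums overlapped, but the markers did not move alike. In 5 of 8 both YAP5SA libraries lay below both Control libraries and in 3 above. Of all tested genes 28.3% lay wholly below and 28.1% wholly above. The median log2 fold change of these markers was -1.05. Of the 8, 2 were higher and 5 lower at an unadjusted p under 0.05 (12.7% and 10.9% of all tested genes), with 0 past the threshold. Their part in the level of Evpl was not tested. The calls of Des and Evpl were lost without either YAP5SA library and with the replicate number as a block (adjusted p = 0.0955 and 0.0721). Of 20 other connexin and pannexin genes 7 were tested, of which 0 passed with edgeR or DESeq2, with a median of -0.99 and 0 higher and 4 lower at an unadjusted p under 0.05, where 12.7% and 10.9% of all tested genes were higher and lower.

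**Figure D5:**
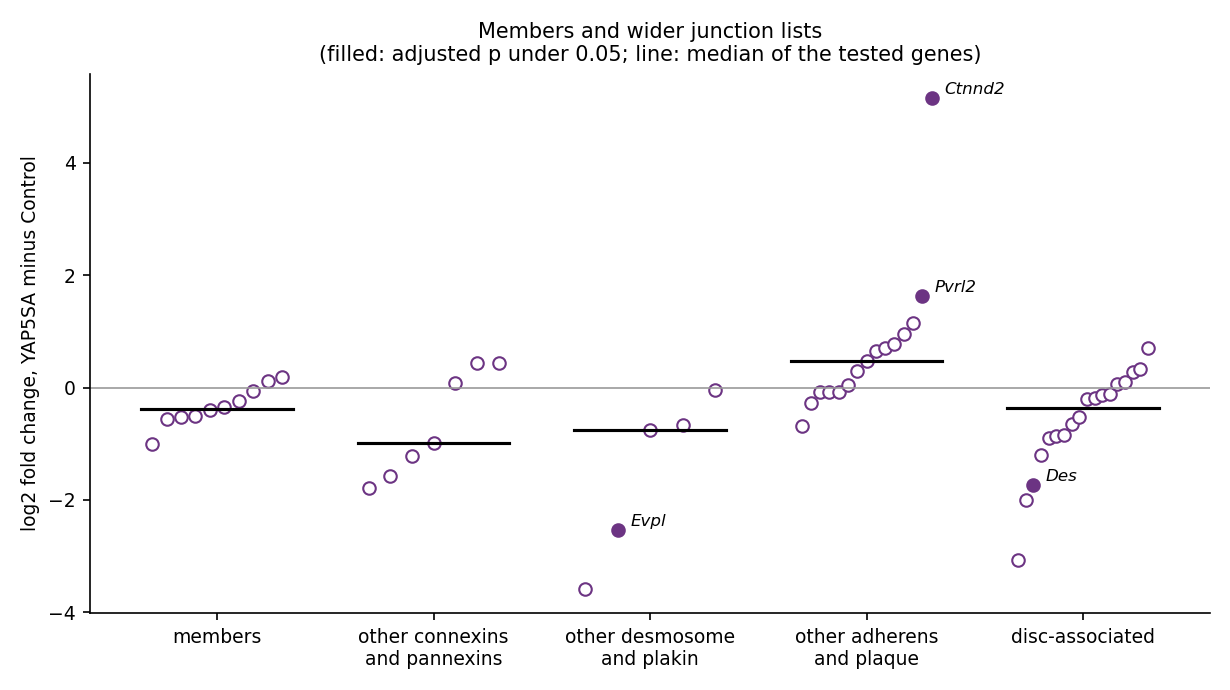
Log2 fold change of YAP5SA over Control for the 10 members and for the tested genes of 4 wider junction lists, each point 1 gene, filled where the adjusted p was under 0.05, with the median of each list as a line. The members cluster between -1.0 and 0.18 with none filled, while the filled points are Ctnnd2 and Pvrl2 above 0 and Des and Evpl below it.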

How the data were processed

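Nuclear RNA was measured in 4 libraries, 2 of YAP5SA and 2 of Control, and the ATAC-seq and 4C-seq samples were not analysed here. Raw counts by gene symbol were deposited, which the authors made from paired 75-base reads of a stranded, ribosomal RNA-depleted library mapped to mm10 with STAR, per the labels' protocols, which also name DESeq2 for the authors' own comparison. For the counting program, its strand setting, annotation and all versions: not given in the sources used here.

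Genes were kept by filterByExpr of edgeR 4.0.16 (R 4.3.3, minimum count 10), scaled by TMM and compared with the quasi-likelihood test without a replicate block, adjusted by Benjamini-Hochberg over all 17715 tested genes at a threshold of 0.05. Each SE was derived from the log2 fold change and its F statistic. Gene places and exon lengths were taken from GENCODE M21, which uses GRCm38 (mm10). Nectin genes and Afdn were found under their older symbols.

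The members, lists and tests were chosen with earlier results of these data known. The rule named all members and, per wider list, the 2 smallest adjusted p in each direction among genes past the threshold, and the nearest genes of any member past it, which none was. Any further gene was named with its values in view. A count of 0 allows up to 3 counts, 0.202 to 0.397 CPM. Replicates differed by more than sampling noise in both groups (chi-square of 15.2 per gene in YAP5SA and 61.9 in Control). Alternatives were DESeq2 1.42.0, voom of limma 3.58.1, RLE factors, library totals, no filter or a minimum count of 50, a replicate block, and leaving out each library.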

Additional observations from a re-analysis of the deposited data

How the results depend on the processing

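Of the 10 members, 0 were called higher and 0 lower with edgeR, DESeq2, limma-voom, RLE factors, library totals alone, the minimum count of 50 and either replicate block. Without the filter on low counts 1 was lower (Ctnna3). Leaving out 1 library gave 0 to 3 higher and 0 to 8 lower members: 0 and 8 without Control replicate 1, 3 and 2 without Control replicate 2, and 0 and 0 without either YAP5SA library. The members' median log2 fold change of -0.37 ran from -0.56 to -0.043 over those fits. The difference in connexin share between YAP5SA and Control ran from -0.49 to 9.53 percentage points for Gja1, from -1.22 to 0.25 for Gja5 and from -8.30 to 0.24 for Gjc1. Signs turned in the fits that left out a library, where the log2 fold change ran from -0.67 to 2.10 for Gja1 (-0.02 without YAP5SA replicate 2), from -0.056 to 0.50 for Gja5, from -0.43 to 0.46 for Cdh2, from -1.72 to 0.53 for Ctnna3 and from -0.61 to 0.021 for Dsc2. Gjc1, Jup, Dsp, Pkp2 and Dsg2 stayed negative in all 12 alternatives.

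Over all genes, 553 were higher and 177 lower. These counts were 1069 and 527 with DESeq2, 1727 and 1689 without the filter, 321 and 112 with the replicate block, and 27 to 3749 higher and 0 to 3554 lower when a library was left out. Of the wider junction genes, 2 were higher and 2 lower, against 5 and 6 with DESeq2, 8 and 13 without the filter, 2 and 1 with the minimum count of 50 (Evpl was then not tested), 2 and 0 with the replicate block, and 0 to 15 higher and 0 to 19 lower when a library was left out. The cause was not tested. Same-numbered libraries deviated with r = -0.11 across genes, which is too weak to show whether numbers match between the groups. A crossed replicate block, chosen after seeing the data, gave 328 and 103 genes, 0 members, and 2 and 0 wider genes. The labels do not say what a number shares. Depth limits Gja5, Evpl and Ctnnd2, and 2 libraries a group limit every member: the 95% intervals of all but Dsg2 include 0.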
